A study of Mus musculus with 12 samples.

Results

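Cytochrome P450s, glutathione S-transferases, aldehyde dehydrogenases, Ugt2 glucuronosyltransferases, carboxylesterases and sulfotransferases are enzyme families that oxidise, hydrolyse or conjugate drugs, food chemicals and lipids. Their members were taken as every probe whose gene symbol began with Cyp and a digit, with Gst and the class letter a, m, o, p, t or k, or with Sult, Aldh, Ugt2 or Ces, leaving out Gsta1. No measured value entered this rule, but the families were chosen with earlier results of these data known. Only probes with a gene number in their ID could enter, and 9805 of the 46628 probes on the array received a symbol. Further genes of these families may therefore be on the array without being found. The rule found 58 genes with 75 probes. Of these genes, 28 (33 probes) gave a signal above background on at least 2 arrays and are called measured below, and 30 did not. Of the genes found, all 8 Gst genes were measured, 14 of 35 Cyp genes, 2 of 4 Aldh, 2 of 5 Ugt2, 2 of 4 Ces and 0 of 2 Sult genes.

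The RNA came from normal and tumour tissue of Apcmin mice, which carry a mutated Apc allele and form intestinal adenomas. Notch-activated mice were Vil-Cre;RosaN1+/RN1, so that Cre under the Villin promoter switches on a Notch1 transgene in the gut epithelium. Notch-inactivated mice were Vil-Cre;Mib1f/f and lose Mib1 in the same epithelium, a ubiquitin ligase without which Notch ligands do not signal. WT mice had neither change, and the Apcmin background was common to all groups. Each tissue and genotype had 2 arrays, which made 12 arrays in 6 groups. The labels name no gut segment, age or sex. Nor is it stated that the pair of arrays behind a group represents different animals. The p-values therefore reflect only how far arrays differ within such pairs, pooled over the 6 groups and moderated over features. Part or all of that spread may be technical. Tissue was not sorted, and Cre acts in epithelial cells, so other cells in a sample keep their Notch genes. Probes for eGFP and IRES, sequences foreign to the mouse, read at least 9.50 and 7.39 on the 4 Notch-activated arrays, against at most 5.48 and 5.57 on the others.

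In the small intestine these enzymes form a first barrier to what is eaten. P450s insert oxygen into a drug or a fatty acid, taking electrons from the reductase Por. Glutathione S-transferases, glucuronosyltransferases and sulfotransferases then attach a polar group, carboxylesterases split esters, and aldehyde dehydrogenases turn reactive aldehydes into acids. Most are known to be made by mature absorptive enterocytes of the villus, and many are induced through nuclear receptors or through the stress-responsive factor Nrf2. Notch signalling in the gut epithelium is best known for holding progenitors back from the secretory (goblet, Paneth) fate.

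Values below are the authors' normalized signals, read as log2, and a difference is a difference of log2 signals between group means, tumour minus normal or Notch genotype minus WT. The limit of background, set by probes for foreign sequences, was 5.58 to 5.82 on the 12 arrays. It was 5.58 to 5.65 on the WT and Notch-inactivated tumour arrays and 5.68 to 5.82 on the others. The test was limma over 22854 features, and a member is said to have risen or fallen where its Benjamini-Hochberg adjusted p was under 0.05. Of the measured members, 19 lay above the limit on all 12 arrays. Levels of different genes are not compared, since each rests on its own probe. Names come from gene numbers inside the probe IDs, and for 8 members (Ces3b, Cyp11a1, Cyp2a5, Cyp4a10, Gsta2, Gstp2, Ugt2a1 and Ugt2b35) from an ID form whose reading is less firm. Members of the Cyp2c, Cyp2d, Cyp4f, Gstm and Gstp groups are close in sequence, so that a probe may read more than 1 of them. Second probes of Ces1c, Ces3b, Cyp2a5, Cyp2c23 and Gstm1 exceeded background on 0 arrays, and that of Cyp4a10 on 1. These second probes were not used.

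Measured members were mostly lower in tumours. In Notch-activated mice 9 of 28 were lower in tumours and 0 higher (background: 12.8% of all features lower, 12.2% higher). In Notch-inactivated mice 17 were lower and 1 higher (25.6% and 25% of all features). In WT mice 20 were lower and 0 higher (25.7% and 23.7%). The median difference of the measured members was -0.40 in Notch-activated, -0.65 in Notch-inactivated and -0.91 in WT mice, beside -0.02, -0.01 and -0.03 over all features. The counts of 0 came from limma, and at an unadjusted p under 0.05 there were likewise 0 members higher in tumours of Notch-activated or WT mice. The 3 tumour comparisons share no arrays, and 7 members were lower in all 3 of them: Cyp2d10, Cyp2d22, Cyp4f13, Cyp4f14, Cyp4f16, Gsta2 and Gstm2. Of all features 9.2% were lower in all 3. A further 9 were lower in 2 genotypes and 7 in 1, and 5 (Ces1c, Cyp11a1, Cyp2a5, Cyp51 and Ugt2a1) were lower in none. The matching shares of all features were not counted, so these numbers cannot be set against a background. Gstm3 is among the 9, and Cyp2c23 and Cyp4a10 are among the 7. Cyp2c23, Cyp4a10 and Gstm3 exceeded background on fewer than 2 tumour arrays and so were measured through normal tissue, which builds their falls into the filter. Without them the members lower numbered 16 in Notch-inactivated and 17 in WT mice. Cyp2a5 and Cyp11a1, called in no comparison, were measured through normal tissue as well. The median differences above include all of these members and were not taken again without them. In bulk tissue, fewer cells of a type and less RNA per cell cannot be told apart.

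**Figure D1:**
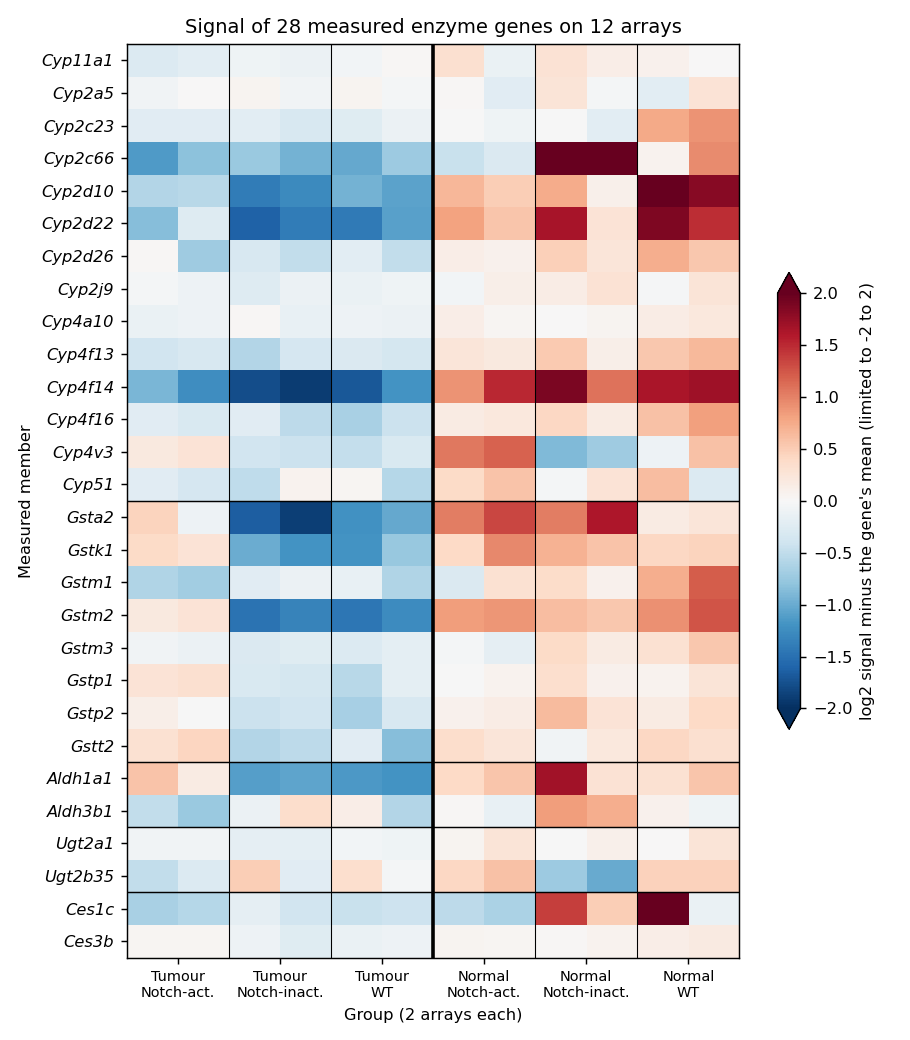
Log2 signal of the 28 measured members on each of the 12 arrays, as the difference from the member's own mean over all arrays (red above, blue below, colours limited to -2 and 2). Columns are the 2 arrays of each group, tumours left of normal tissue, and horizontal lines part the families. Cyp2d10, Cyp2d22 and Cyp4f14 are blue in all 6 tumour columns, while Cyp2c66 is darkest red in the 2 Notch-inactivated normal columns.

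Among the Cyp2d genes, relatives of a main drug-oxidising P450 of the human liver, Cyp2d10 (chr15:82402845-82407253, GRCm38.p6) and Cyp2d22 (chr15:82370527-82380260) lie 22.6 kb apart. Cyp2d10 read 6.88 and 6.91 in Notch-activated tumours, 6.07 and 6.20 in Notch-inactivated tumours and 6.52 and 6.41 in WT tumours. In normal tissue it read 8.14 and 7.96 in Notch-activated, 8.21 and 7.57 in Notch-inactivated and 9.53 and 9.29 in WT mice. Every tumour array thus lay below every normal array, and the WT normal arrays lay above all others. It fell in tumours of each genotype, with differences of -1.15 in Notch-activated (adjusted p = 0.00226), -1.76 in Notch-inactivated (4.58e-05) and -2.94 in WT mice (2.09e-06) and an SE of 0.18.

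Cyp2d22 was also low in all tumours, with wider spread between arrays. Its tumour signals were 6.96 and 7.56 in Notch-activated, 6.20 and 6.41 in Notch-inactivated and 6.40 and 6.73 in WT mice. The normal signals were 8.61 and 8.37 in Notch-activated, 9.47 and 8.09 in Notch-inactivated and 9.68 and 9.29 in WT mice. The tumour and normal arrays did not overlap. The differences were -1.24 in Notch-activated, -2.47 in Notch-inactivated and -2.92 in WT mice (SE 0.37, adjusted p = 0.0373, 0.00046 and 0.000157). The call in Notch-activated mice was lost on leaving out any of the 4 arrays compared (adjusted p 0.059 to 0.196). The third member, Cyp2d26, ranged over 5.71 to 6.45 on tumour arrays and 6.50 to 7.15 on normal arrays, and fell in Notch-inactivated (-0.76) and WT tumours (-0.99). Its Notch-inactivated call was lost on leaving out normal array 1 (-0.64, adjusted p = 0.0757) or tumour array 2 (-0.67, 0.074) of that genotype.

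Cyp4f13, Cyp4f14 and Cyp4f16 lie on chromosome 17 and encode omega-hydroxylases of fatty acids and leukotrienes, and all 3 fell in tumours of every genotype. Cyp4f14 (chr17:32903357-32917376), a leukotriene B4 hydroxylase, fell the most of all members in Notch-activated and WT tumours. It read 6.63 and 6.31 in Notch-activated tumours, 5.77 and 5.66 in Notch-inactivated tumours and 5.86 and 6.35 in WT tumours. Its normal signals were 8.45 and 9.06 in Notch-activated, 9.44 and 8.63 in Notch-inactivated and 9.18 and 9.25 in WT mice. The lowest normal array stood well above the highest tumour array, and in Notch-inactivated tumours Cyp4f14 was only just above background. The differences were -2.28 in Notch-activated (adjusted p = 0.000687), -3.32 in Notch-inactivated (1.36e-05) and -3.11 in WT mice (1.71e-05), with an SE of 0.28.

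Its neighbour Cyp4f13, 7.3 kb away, moved less. It read 8.18 and 8.25 in Notch-activated, 7.98 and 8.23 in Notch-inactivated and 8.28 and 8.22 in WT tumours, against 8.81 and 8.76 in Notch-activated, 9.10 and 8.69 in Notch-inactivated and 9.11 and 9.22 in WT normal tissue. The 6 tumour arrays were nearly level and all lay below the normal ones. The differences were -0.57, -0.79 and -0.92 in Notch-activated, Notch-inactivated and WT mice (SE 0.14), and the first was lost as a call on leaving out any of the 4 arrays (adjusted p 0.0575 to 0.0757). Cyp4f16 read 7.08 and 6.99 in Notch-activated, 7.07 and 6.78 in Notch-inactivated and 6.66 and 6.87 in WT tumours. The normal signals were 7.47 and 7.51 in Notch-activated, 7.72 and 7.47 in Notch-inactivated and 7.89 and 8.11 in WT mice. Tumour and normal arrays again did not overlap, and the differences were -0.46, -0.67 and -1.24. The call for -0.46 in Notch-activated mice was lost in the same way (adjusted p 0.0898 to 0.154).

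Cyp4v3, a fatty acid hydroxylase, followed genotype as much as tissue. It read 7.72 and 7.79 in Notch-activated, 7.14 and 7.09 in Notch-inactivated and 7.04 and 7.21 in WT tumours. Normal tissue gave 8.57 and 8.69 in Notch-activated, 6.63 and 6.81 in Notch-inactivated and 7.41 and 8.10 in WT mice. The 3 normal groups did not overlap, with Notch-activated highest and Notch-inactivated lowest. Cyp4v3 fell in Notch-activated tumours (-0.88, SE 0.18, adjusted p = 0.0084) and WT tumours (-0.63, adjusted p = 0.0166), while in Notch-inactivated mice the difference was 0.39 (adjusted p = 0.0993). The WT value rested on the spread of its normal arrays: it was -0.98 without WT normal array 1 and -0.29 without array 2 (adjusted p = 0.0994), and without WT tumour array 1 it was -0.55 (0.0948). The Notch-activated call was lost on leaving out normal array 2 of that genotype (-0.82, adjusted p = 0.0603). The PPAR-alpha target Cyp4a10 stayed between 5.58 and 5.94 on all arrays, near background, and was at least 1.21-fold lower in WT tumours. Such a bound takes the brighter group's mean over a floor for the dimmer one, which is the background limit of each array, or the probe's signal where that is larger.

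**Figure D2:**
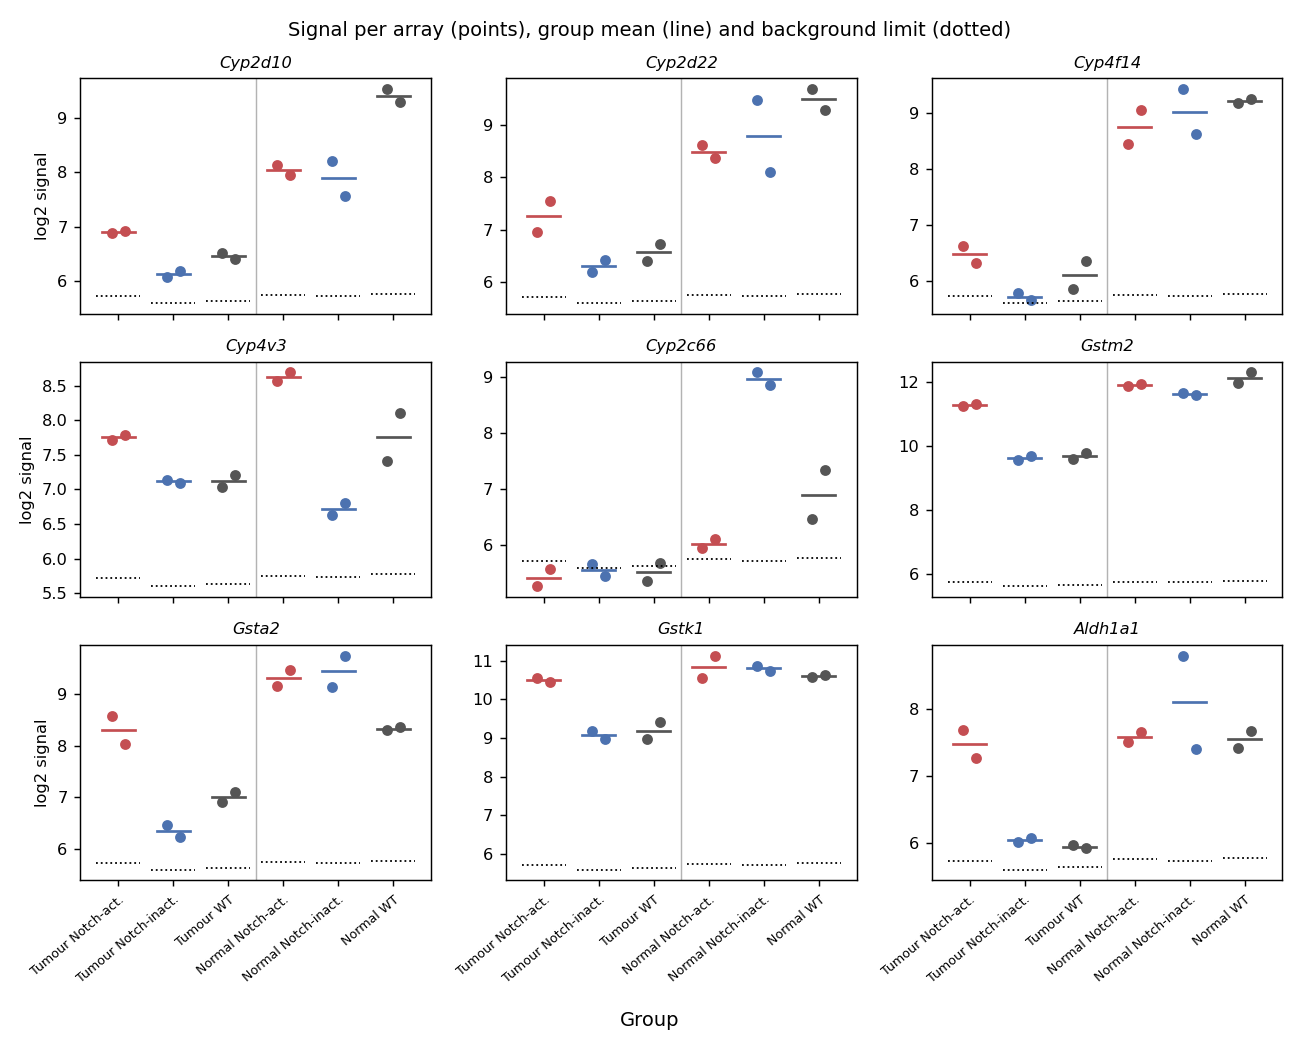
Log2 signal (vertical axis, a scale per panel) of 9 members by group (horizontal axis, tumours left, normal tissue right). Points are arrays, short lines group means of 2 arrays, and dotted lines the mean background limit of the group. Cyp2d10, Cyp2d22 and Cyp4f14 are low in all tumours, Gstm2, Gstk1 and Aldh1a1 are low in Notch-inactivated and WT tumours with Notch-activated tumours above them, and Cyp2c66 stands out in Notch-inactivated normal tissue.

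The Cyp2c genes make epoxides from arachidonic acid and oxidise drugs. Cyp2c66 (chr19:39113898-39186756) read 9.08 and 8.85 in Notch-inactivated normal tissue, against 6.46 and 7.34 in WT normal tissue. Notch-activated normal tissue gave 5.95 and 6.11, just above background. Its tumour signals were 5.27 and 5.57 in Notch-activated, 5.66 and 5.45 in Notch-inactivated and 5.37 and 5.68 in WT mice, at background on 4 of 6 arrays. It was thus high in normal tissue of 1 genotype and near background in all tumours. It fell in tumours of Notch-inactivated (-3.41, SE 0.25, adjusted p = 6.09e-06) and WT mice (-1.38, 0.00124), and the difference of -0.61 in Notch-activated mice did not pass (0.099). A second, dimmer probe of Cyp2c66 gave -0.11 in Notch-activated, -1.31 in Notch-inactivated and -0.21 in WT mice, and with the mean of both probes the WT value was -0.79. Both probes were higher in Notch-inactivated than in WT normal tissue, by 2.06 and 1.02.

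Cyp2c23 (chr19:44005022-44029256), which codes for an arachidonic acid epoxygenase, was well above background only in WT normal tissue, at 6.53 and 6.68. It read 5.77 and 5.69 in Notch-activated and 5.78 and 5.56 in Notch-inactivated normal tissue. Tumours gave 5.55 and 5.55 in Notch-activated, 5.56 and 5.46 in Notch-inactivated and 5.54 and 5.66 in WT mice. It fell in WT tumours (-1.01, SE 0.10, adjusted p = 4.4e-05). Cyp2j9, of another arachidonic acid oxidising group, stayed between 5.60 and 6.15 and fell in Notch-inactivated tumours (-0.41), a call lost on leaving out normal array 2 (-0.33, adjusted p = 0.0866) or tumour array 1 (-0.34, 0.0963) of that genotype. Cyp2a5, a coumarin hydroxylase, stayed between 5.36 and 5.86 and passed no comparison.

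The remaining P450s serve steroid synthesis. Cyp51, lanosterol demethylase of the cholesterol pathway, read 10.78 and 10.66 in Notch-activated, 10.49 and 11.06 in Notch-inactivated and 11.05 and 10.42 in WT tumours. Normal tissue gave 11.39 and 11.57 in Notch-activated, 10.97 and 11.27 in Notch-inactivated and 11.61 and 10.73 in WT mice. These signals are from the brighter probe, whose arrays overlapped between tissues in Notch-inactivated and WT mice. No comparison passed, with tumour differences of -0.76, -0.34 and -0.44 in Notch-activated, Notch-inactivated and WT mice (SE 0.30). The WT value was -0.88 without WT normal array 2. A second, dimmer probe of Cyp51 gave -0.65, -0.69 and -0.73, with tumour arrays below normal ones in each genotype. Between Notch-activated and WT tumours it gave 0.40, beside -0.02 for the brighter probe. The second probe was not tested by itself. Cyp11a1, the side chain cleavage enzyme of steroid hormone synthesis, stayed between 5.37 and 5.97 and passed no comparison either. Signals of Cyp1b1, the 4 Cyp3a genes found and 13 of the 20 Cyp2 genes found did not reach the measured set.

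The mu class glutathione S-transferases Gstm1, Gstm2 and Gstm3 are neighbours on chromosome 3 and did not share a pattern. Their promoters are shown to let a reader compare them. Each is 300 bases on the minus strand of GRCm38.p6 from RefSeq, with 250 bases before and 50 after a start of transcription, and capitals mark TGGGAA, the core that the Notch effector RBPJ binds, on either strand.
Gstm1, chr3:108017924-108018223: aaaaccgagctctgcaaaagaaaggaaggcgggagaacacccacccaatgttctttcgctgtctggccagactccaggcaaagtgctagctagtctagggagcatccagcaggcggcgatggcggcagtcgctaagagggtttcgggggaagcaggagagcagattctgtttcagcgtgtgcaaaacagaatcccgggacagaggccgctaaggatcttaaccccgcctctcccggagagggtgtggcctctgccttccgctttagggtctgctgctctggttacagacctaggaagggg
Gstm2, chr3:107986371-107986670: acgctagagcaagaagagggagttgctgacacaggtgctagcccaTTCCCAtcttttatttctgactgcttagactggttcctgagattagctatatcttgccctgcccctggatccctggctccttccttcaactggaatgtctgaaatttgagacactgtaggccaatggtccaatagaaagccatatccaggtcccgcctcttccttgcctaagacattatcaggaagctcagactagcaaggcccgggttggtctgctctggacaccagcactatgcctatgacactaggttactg
Gstm3, chr3:107969125-107969424: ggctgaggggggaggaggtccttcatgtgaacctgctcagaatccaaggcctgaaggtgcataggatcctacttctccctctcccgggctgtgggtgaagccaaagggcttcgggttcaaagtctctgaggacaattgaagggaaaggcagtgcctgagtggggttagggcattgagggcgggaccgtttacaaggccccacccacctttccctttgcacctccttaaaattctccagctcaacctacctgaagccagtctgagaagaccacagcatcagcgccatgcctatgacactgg
In global alignments, Gstm1 and Gstm2 share 149 of 300 bases, Gstm2 and Gstm3 151, and Gstm1 and Gstm3 143. Pairs with or between the P450 promoters printed further on share 138 to 170. The core occurs once in Gstm2 and in neither of the others.

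Gstm2 (chr3:107981702-107986420) read 11.23 and 11.31 in Notch-activated tumours, 9.55 and 9.69 in Notch-inactivated tumours and 9.59 and 9.77 in WT tumours. Its normal signals were 11.87 and 11.91 in Notch-activated, 11.65 and 11.58 in Notch-inactivated and 11.95 and 12.29 in WT mice. Notch-activated tumours came close to normal tissue, and the other tumours lay far below both. Gstm2 fell in tumours of each genotype, with differences of -0.62 in Notch-activated (adjusted p = 0.00638), -1.99 in Notch-inactivated (2.71e-06) and -2.44 in WT mice (6.68e-07) and an SE of 0.12. A second probe of the gene gave -0.55, -2.0 and -2.39.

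Gstm1 (chr3:108012250-108017973) did not share this pattern. It read 9.29 and 9.21 in Notch-activated, 9.67 and 9.78 in Notch-inactivated and 9.75 and 9.30 in WT tumours, and 9.62 and 10.20 in Notch-activated, 10.27 and 9.98 in Notch-inactivated and 10.62 and 11.11 in WT normal tissue. WT normal tissue was highest. Gstm1 fell in WT tumours (-1.34, SE 0.23, adjusted p = 0.000909), and the differences of -0.66 in Notch-activated and -0.40 in Notch-inactivated mice did not pass. Gstm3 (chr3:107963696-107969174) was above background on 4 arrays, all normal: 6.09 and 5.88 in Notch-inactivated and 6.0 and 6.24 in WT mice. It read 5.66 and 5.52 in Notch-activated normal tissue and 5.42 to 5.64 on the tumour arrays. It was measured through these normal arrays alone, so a lower signal in tumours follows from the filter and is given as a description: at least 1.31-fold lower in tumours of Notch-inactivated mice and at least 1.4-fold lower in those of WT mice.

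Gsta2 (chr9:78331018-78347192), of the alpha class that also reduces lipid peroxides, read 8.57 and 8.03 in Notch-activated, 6.47 and 6.24 in Notch-inactivated and 6.92 and 7.10 in WT tumours. Normal tissue gave 9.15 and 9.46 in Notch-activated, 9.14 and 9.74 in Notch-inactivated and 8.29 and 8.37 in WT mice. Both Notch genotypes were thus above WT in normal tissue, and among tumours Notch-activated ones were highest. Gsta2 fell in tumours of each genotype, with differences of -1.0 in Notch-activated (SE 0.22, adjusted p = 0.0106), -3.09 in Notch-inactivated (5.77e-06) and -1.32 in WT mice (0.000829). The Notch-activated call was lost on leaving out normal array 2 (-0.85, adjusted p = 0.0831) or tumour array 2 (-0.73, 0.0815).

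Gstk1 (chr6:42245935-42250441), the kappa class enzyme of mitochondria and peroxisomes, read 10.56 and 10.45 in Notch-activated tumours, against 10.56 and 11.13 in normal tissue of the same genotype. Notch-inactivated mice gave 9.18 and 8.96 in tumours and 10.87 and 10.73 in normal tissue. WT mice gave 8.97 and 9.41 in tumours and 10.58 and 10.62 in normal tissue. In Notch-activated mice the higher tumour array nearly equalled the lower normal array, while in the other genotypes tumours lay well below. Gstk1 fell in Notch-inactivated (-1.73, adjusted p = 6.8e-05) and WT tumours (-1.41, 0.000214), and the Notch-activated difference was -0.35 (SE 0.19, adjusted p = 0.209).

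The pi class genes Gstp1 and Gstp2 lie 2.4 kb apart on chromosome 19, and both fell in Notch-inactivated and WT tumours. Gstp1 read 11.11 and 11.15 in Notch-activated, 10.53 and 10.48 in Notch-inactivated and 10.27 and 10.64 in WT tumours, and 10.83 and 10.91 in Notch-activated, 11.17 and 10.92 in Notch-inactivated and 10.91 and 11.10 in WT normal tissue. In Notch-activated mice the tumour arrays lay above the normal ones, with a difference of 0.26 that did not pass (SE 0.14, adjusted p = 0.19). The falls in Notch-inactivated and WT mice were both -0.54. The call in Notch-inactivated mice was lost on leaving out normal array 1 (-0.41, adjusted p = 0.0612), and the call in WT mice on leaving out normal array 2 (-0.45, 0.0586) or tumour array 1 (-0.36, 0.0711).

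Gstp2 read 12.64 and 12.52 in Notch-activated, 12.10 and 12.14 in Notch-inactivated and 11.87 and 12.21 in WT tumours. Normal tissue gave 12.61 and 12.67 in Notch-activated, 13.16 and 12.81 in Notch-inactivated and 12.69 and 12.92 in WT mice. The Notch-activated arrays overlapped between tissues (-0.07), and the differences were -0.86 in Notch-inactivated and -0.77 in WT mice (SE 0.15). Gstt2, of the theta class, read 9.10 and 9.23 in Notch-activated, 8.20 and 8.26 in Notch-inactivated and 8.57 and 7.95 in WT tumours, and 9.14 and 9.03 in Notch-activated, 8.72 and 9.01 in Notch-inactivated and 9.21 and 9.12 in WT normal tissue. It fell in Notch-inactivated (-0.63) and WT tumours (-0.91, SE 0.18), with a difference of 0.08 in Notch-activated ones. The WT value was -0.60 without WT tumour array 2. The call in Notch-inactivated mice was lost on leaving out normal array 2 (-0.48, adjusted p = 0.0949) or tumour array 1 (-0.60, 0.0668).

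Aldh1a1 (chr19:20492583-20643463) makes retinoic acid from retinal and removes lipid aldehydes. It read 7.68 and 7.27 in Notch-activated tumours, 6.01 and 6.07 in Notch-inactivated tumours and 5.96 and 5.92 in WT tumours. Normal tissue gave 7.51 and 7.66 in Notch-activated, 8.80 and 7.41 in Notch-inactivated and 7.42 and 7.67 in WT mice. Notch-activated tumours sat at the level of normal tissue, and the other tumours were close to background. Aldh1a1 fell in Notch-inactivated (-2.07, SE 0.34, adjusted p = 0.000815) and WT tumours (-1.60, 0.00346), with -0.11 in Notch-activated ones (0.845). The Notch-inactivated value was -1.37 without normal array 1. Aldh3b1, which oxidises lipid-derived aldehydes, ranged over 6.59 to 7.70 on tumour and 7.20 to 8.18 on normal arrays. It fell in Notch-inactivated tumours (-0.66, adjusted p = 0.032), a call lost on leaving out either normal array (-0.61 and -0.72, adjusted p = 0.12 and 0.0707) or tumour array 1 (-0.43, 0.21) of that genotype.

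Ugt2b35 was the member that went the other way. It read 7.70 and 6.97 in Notch-inactivated tumours, against 6.48 and 6.20 in normal tissue of that genotype, and rose by 1.0 (SE 0.22, adjusted p = 0.00393), or by 0.64 without tumour array 1. In Notch-activated mice it read 6.72 and 6.92 in tumours and 7.62 and 7.79 in normal tissue. WT mice gave 7.55 and 7.17 in tumours and 7.67 and 7.67 in normal tissue. It fell in Notch-activated tumours (-0.89, adjusted p = 0.0168), a call lost on leaving out normal array 2 (-0.80, adjusted p = 0.103) or either tumour array (-0.78 and -0.99, 0.0934 and 0.0515). The WT difference of -0.31 did not pass. Ugt2a1 stayed between 5.66 and 6.11 and passed no comparison.

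The carboxylesterase Ces1c was uneven between arrays of 1 group. It read 5.40 and 5.48 in Notch-activated, 5.86 and 5.67 in Notch-inactivated and 5.60 and 5.63 in WT tumours. Normal tissue gave 5.51 and 5.41 in Notch-activated, 7.42 and 6.54 in Notch-inactivated and 8.11 and 5.91 in WT mice. The 2 WT normal arrays differed more than any 2 group means of the gene, and no comparison passed (WT tumours -1.40, SE 0.55, adjusted p = 0.0567). With the replicate number as a block in limma, Ces1c was called lower in WT tumours (adjusted p = 0.0373). Without WT normal array 2 the WT difference was -2.50. Ces3b stayed between 5.45 and 5.87. It was at least 1.16-fold lower in WT tumours, a call lost on leaving out WT normal array 2 (-0.26, adjusted p = 0.0805) or either WT tumour array (-0.26 and -0.30, 0.0912 and 0.0553). The WT call for Cyp4a10 was lost with the same arrays, at -0.25 (adjusted p = 0.1) without normal array 2 and at -0.30 and -0.28 (0.0725 and 0.0846) without tumour arrays 1 and 2.

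**Figure D3:**
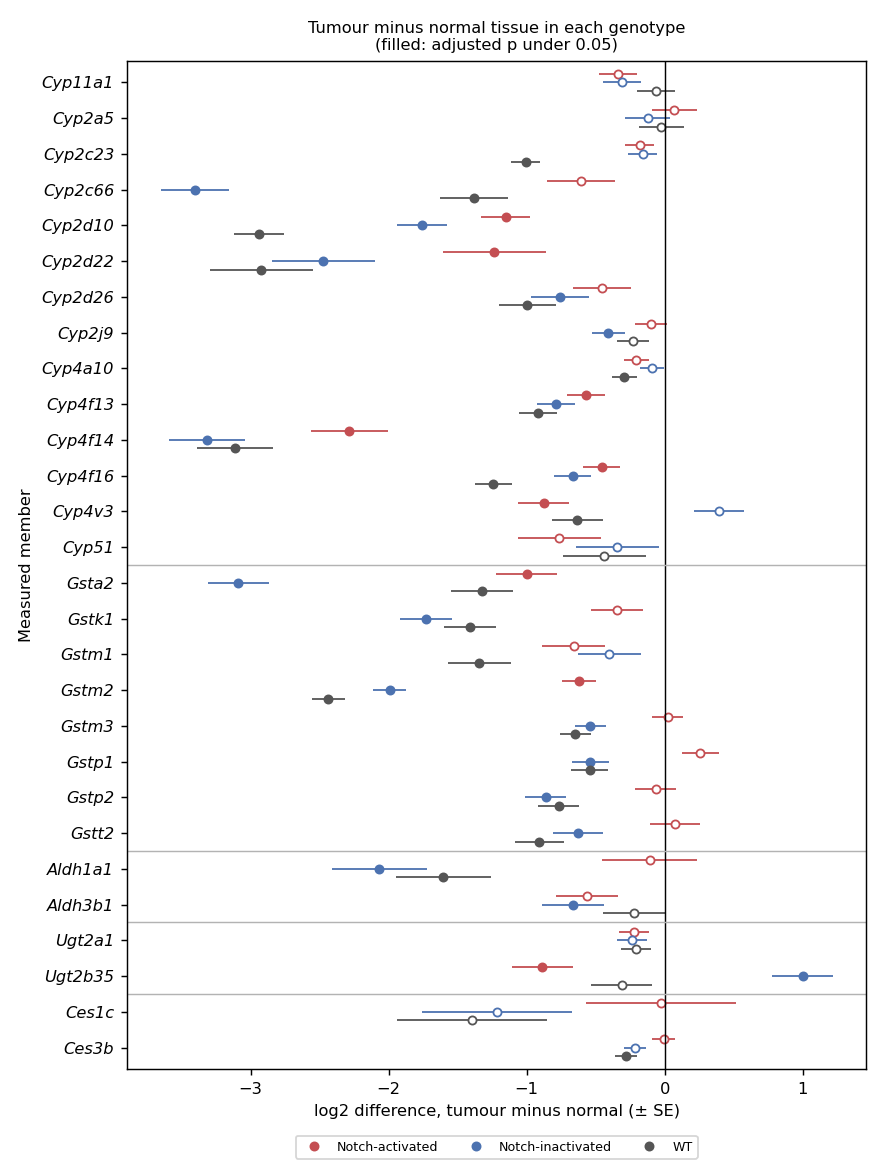
Log2 difference, tumour minus normal tissue (horizontal axis), of the 28 measured members (vertical axis, grouped by family) in Notch-activated, Notch-inactivated and WT mice. Points are differences of group means of 2 arrays, bars 1 SE from the shared fit, and filled points have an adjusted p under 0.05. Most points lie left of 0, the Notch-activated ones closer to it for Gstm2, Gstk1, Aldh1a1 and Cyp2d10, and Ugt2b35 in Notch-inactivated mice is the filled point on the right.

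By family, 2 of 8 measured Gst genes fell in Notch-activated, 7 in Notch-inactivated and 8 in WT tumours, with median differences of -0.21, -0.74 and -1.12. Without Gstm3 these were 2, 6 and 7 of 7 genes, with medians of -0.35, -0.86 and -1.32. Of the 14 Cyp genes, 6 fell in Notch-activated, 8 in Notch-inactivated and 10 in WT tumours. Within these, 2, 5 and 5 of the 7 Cyp2 genes and 4, 3 and 5 of the 5 Cyp4 genes fell in the 3 genotypes in the same order. The WT counts include Cyp2c23 among the Cyp2 and Cyp4a10 among the Cyp4 genes. Both were measured through normal tissue, so their falls are built into the filter. Leaving out each array in turn, the number lower was 4 to 11 in Notch-activated, 14 to 18 in Notch-inactivated and 17 to 22 in WT tumours. It was 4 in Notch-activated mice without normal array 2 or without tumour array 2.

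Markers of other cells moved with tissue. Of 15 enterocyte markers, 3 were measured (Slc5a1, Slc15a1 and Mep1b), and all 3 fell in the tumours of every genotype. Their mean signal was 7.10 to 7.33 in Notch-activated, 6.28 to 6.50 in Notch-inactivated and 6.28 to 6.50 in WT tumours, against 7.90 to 8.12 in Notch-activated, 7.95 to 8.07 in Notch-inactivated and 8.45 to 8.57 in WT normal tissue. The 5 measured fibroblast markers had means of 8.26 to 8.54 in Notch-activated, 8.99 to 9.40 in the other tumours and 5.73 to 6.02 in normal tissue. The 5 myeloid markers had 7.35 to 7.39 in Notch-activated tumours, 7.92 to 8.52 in the other tumours and 5.57 to 6.26 in normal tissue, and the 4 endothelial markers all rose in tumours of every genotype. Of the 5 measured Paneth cell markers 0 rose in Notch-activated, 1 in Notch-inactivated and 4 in WT tumours. Their means were 5.42 to 5.96 in Notch-activated, 9.55 to 9.95 in Notch-inactivated and 9.52 to 9.78 in WT tumours, against 5.49 to 5.52 in Notch-activated, 8.93 to 10.09 in Notch-inactivated and 5.96 to 6.22 in WT normal tissue. The 2 goblet cell markers, Clca1 and Muc4, had means of 6.19 to 6.98 in Notch-activated, 7.76 to 9.64 in Notch-inactivated and 7.36 to 9.65 in WT tumours, and Muc4 fell in the tumours of Notch-inactivated (-2.48) and WT mice (-2.12). Their normal means were 6.57 to 8.33 in Notch-activated, 11.74 to 11.96 in Notch-inactivated and 11.38 to 11.68 in WT mice. Acta2 of smooth muscle and Igkc, 1 of 2 lymphoid markers, rose in tumours of every genotype. Of the 2 mast cell markers, Mcpt4 fell in Notch-activated and rose in Notch-inactivated tumours, and Cma1 fell in Notch-inactivated and WT tumours. Of 7 hepatocyte markers only transferrin (Trf) was measured, which other tissues also make. Trf neither rose nor fell in tumours of any genotype. It was higher in Notch-activated than in WT mice, by 1.95 in normal tissue and by 1.09 in tumours. The part of these cell types in the enzymes' differences was not tested.

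Promoters of 24 of the 28 measured members were in the RefSeq table, and those of the 2 P450s with the steepest falls in WT tumours are printed here. The marking is as above.
Cyp2d10, chr15:82407145-82407444: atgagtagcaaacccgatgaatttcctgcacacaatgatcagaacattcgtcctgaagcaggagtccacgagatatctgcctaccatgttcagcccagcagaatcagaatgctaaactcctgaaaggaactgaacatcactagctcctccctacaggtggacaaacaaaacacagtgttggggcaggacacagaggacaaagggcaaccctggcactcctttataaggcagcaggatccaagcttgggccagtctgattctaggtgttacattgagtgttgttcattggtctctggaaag
Cyp4f14, chr17:32917307-32917606: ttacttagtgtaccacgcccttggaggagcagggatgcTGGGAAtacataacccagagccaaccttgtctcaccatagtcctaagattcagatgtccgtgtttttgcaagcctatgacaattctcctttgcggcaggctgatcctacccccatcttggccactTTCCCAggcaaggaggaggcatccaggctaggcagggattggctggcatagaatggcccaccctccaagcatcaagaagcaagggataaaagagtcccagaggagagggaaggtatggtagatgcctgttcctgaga
The TGGGAA core occurs in 6 of the 24 promoters (25.0%), Aldh3b1, Cyp2d26, Cyp4f13, Cyp4f14, Cyp4v3 and Gstm2, beside 25.5% of all 27025 promoters in the table. It is found at 2 places in Cyp4f14 and at 0 in Cyp2d10. The core GCGTG of the xenobiotic response element, which the receptor Ahr binds, occurs in 8 of 24 (33.3%) and in 32.5% of all. The antioxidant response element core TGACNNNGC, bound by Nrf2, occurs in 1 of 24 (Cyp2c66; 4.2%) and in 12.4% of all, and the HNF4 core CAAAGTCCA in 0 and in 0.5%. Both strands were searched, no 2 of these matches overlapped, and a match describes letters only.

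Normal tissue of the 2 Notch genotypes differed from WT in some members. In Notch-activated normal tissue 2 of 28 were higher and 5 lower (background 3.7% and 4.34%), and in Notch-inactivated normal tissue 2 were higher and 4 lower (2.17% and 2.01%). Both comparisons use the same WT arrays. Without Cyp2c23 and Gstm3, which were measured through normal tissue, the members lower numbered 3 in each. Cyp2d10 was lower in both, with -1.36 in Notch-activated (adjusted p = 0.00151) and -1.52 in Notch-inactivated normal tissue (0.00215). Cyp2c23 was also lower in both (-0.88 and -0.94, SE 0.10, adjusted p = 0.000797 and 0.00156). Gsta2 was higher in both (0.97 and 1.11, SE 0.22, adjusted p = 0.0247 and 0.0236). Both Gsta2 calls were lost on leaving out WT normal array 1 (0.94 and 1.08, adjusted p = 0.117 and 0.106) or array 2 (1.01 and 1.15, 0.0927 and 0.0973). The Notch-activated call was also lost with either array of its own group left out (1.13 and 0.82, 0.0614 and 0.164), and the Notch-inactivated call with array 2 of its group left out (0.81, 0.115).

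Cyp4v3 was called in both Notch genotypes, with opposite signs. It was higher by 0.88 in Notch-activated normal tissue (SE 0.18, adjusted p = 0.0169) and lower in Notch-inactivated normal tissue (-1.03, 0.014). The first call was lost on leaving out either Notch-activated normal array (0.94 and 0.82, 0.0695 and 0.113), and its value was 0.53 without WT normal array 1. The second was lost on leaving out Notch-inactivated normal array 1 (-0.95, 0.061). Cyp2c66 was higher by 2.06 in Notch-inactivated normal tissue (SE 0.25, adjusted p = 0.00217), beside -0.87 in Notch-activated normal tissue (0.061). Ugt2b35 was lower in Notch-inactivated normal tissue (-1.33, adjusted p = 0.00987), a call lost on leaving out either WT normal array (-1.33 each, 0.0511 and 0.0621) or Notch-inactivated normal array 2 (-1.19, 0.0647).

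In Notch-activated normal tissue Gstm1 (-0.96, adjusted p = 0.0302) and Cyp4f16 (-0.51, 0.0464) were lower, and Gstm3 was at least 1.3-fold lower (0.0171). Without WT normal array 2 these were -0.71 (0.184), -0.40 (0.231) and -0.41 (0.112). The Gstm1 call was also lost without Notch-activated normal array 1 (-0.66, 0.187) and the Gstm3 call without array 2 of that group (-0.46, 0.117). The Cyp4f16 call was lost with 8 of the 12 arrays left out in turn, arrays of WT and Notch-activated mice in both tissues (adjusted p 0.0518 to 0.231), and its second probe gave -0.22. Markers of other cells moved here too. Of the 5 Paneth cell markers 0 were higher in Notch-activated normal tissue and 4 in that of Notch-inactivated mice. Muc4 was lower in Notch-activated normal tissue (-2.62). Of the 3 enterocyte markers 1 was lower in each Notch genotype, Slc15a1 in Notch-activated (-0.66) and Slc5a1 in Notch-inactivated normal tissue (-1.16), and the means of the 3 given above were below those of WT arrays. Of the 2 mast cell markers, Mcpt4 was higher in Notch-activated (2.19) and Cma1 in Notch-inactivated normal tissue (3.25). Of the 5 myeloid markers, C1qb and Lyz2 were higher in Notch-activated normal tissue. The part of these cells in the enzyme differences was not tested.

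**Figure D4:**
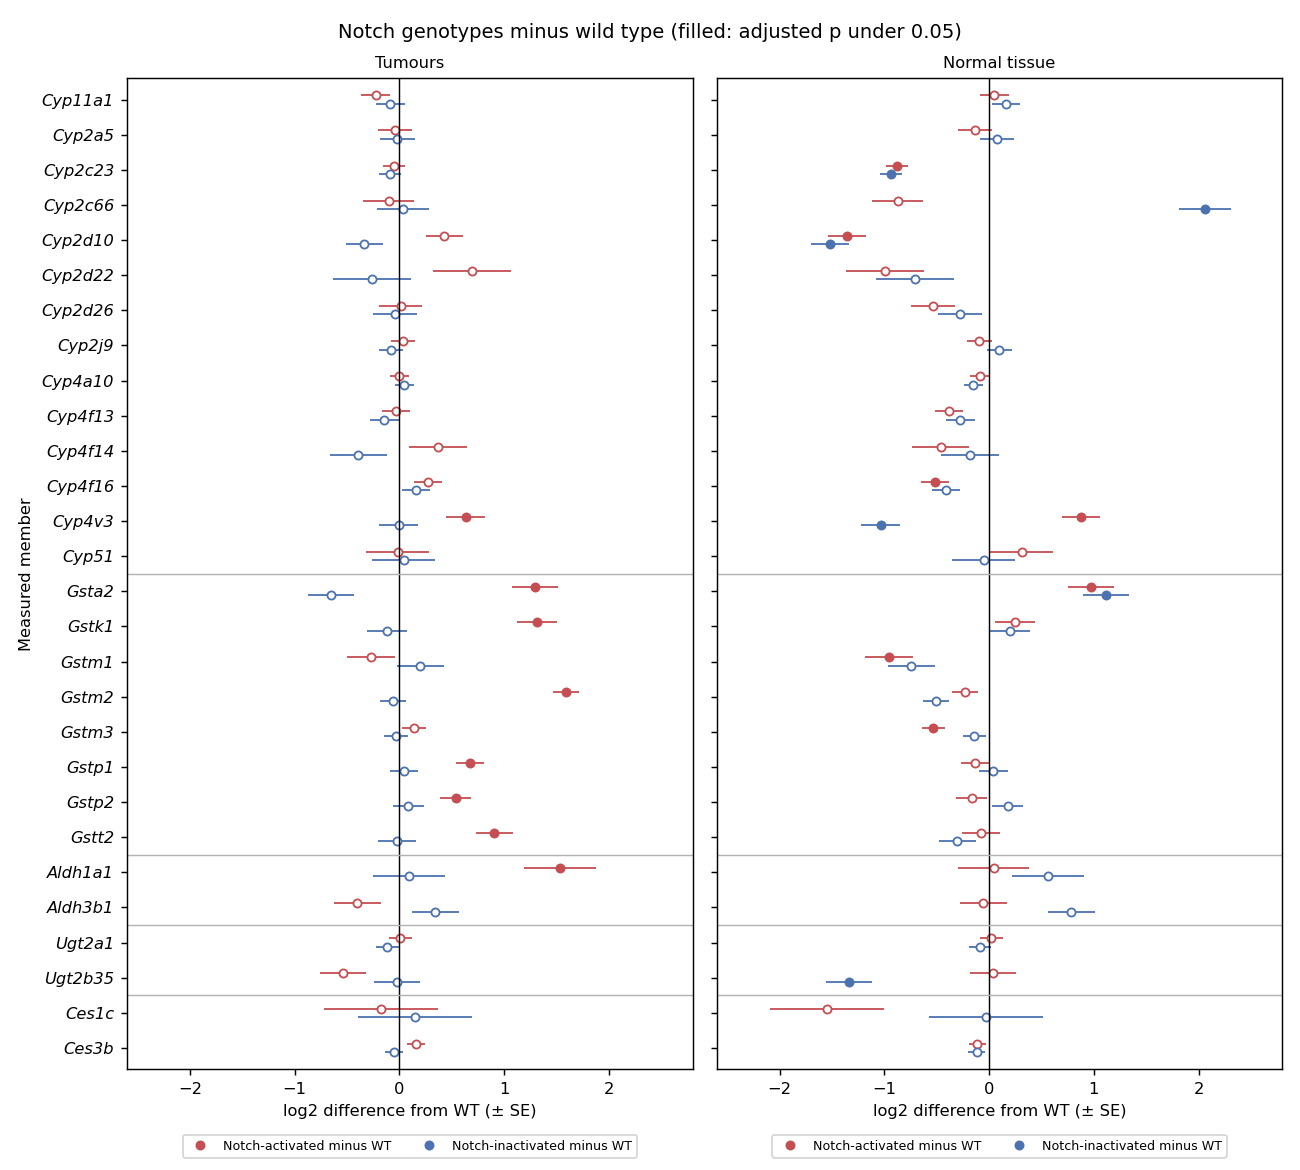
Log2 difference from WT (horizontal axis) of the 28 measured members (vertical axis, grouped by family) in tumours (left panel) and normal tissue (right panel), for Notch-activated and Notch-inactivated mice. Points are differences of group means of 2 arrays, bars 1 SE, and filled points have an adjusted p under 0.05. The filled points in tumours are all Notch-activated and right of 0, and 6 of the 8 are Gst genes.

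Most glutathione S-transferases had higher signals in Notch-activated than in WT tumours. In Notch-activated tumours 8 of 28 members were higher than in WT tumours and 0 lower (background 10.9% and 10.4%), with a median of 0.09 beside 0.01 over all features. The 8 were 6 of the 8 Gst genes, Aldh1a1 and Cyp4v3. Gstm2 was higher by 1.59 (SE 0.12, adjusted p = 3.27e-05), Aldh1a1 by 1.54 (SE 0.34, 0.0104), Gstk1 by 1.32 (SE 0.19, 0.000957) and Gsta2 by 1.30 (SE 0.22, 0.00247). Gstt2 was higher by 0.91 (0.00535), Gstp1 by 0.67 (0.00603), Cyp4v3 by 0.63 (0.0349) and Gstp2 by 0.54 (0.0272). The other Gst genes had -0.27 (Gstm1) and 0.14 (Gstm3, at background in both groups). Neither of the 2 measured glucuronosyltransferases passed, with -0.54 for Ugt2b35 (adjusted p = 0.12) and 0.01 for Ugt2a1. Of the 14 P450s, Cyp4v3 alone passed, and Cyp2d22 (0.69), Cyp2d10 (0.43) and Cyp4f14 (0.37) did not. At an unadjusted p under 0.05 limma gave 9 members higher and 1 lower. The adjusted test called 1 member lower with any of 3 arrays left out: Aldh3b1 without WT tumour array 2 (-0.76, adjusted p = 0.0301), and Ugt2b35 without Notch-inactivated tumour array 1 or array 2 (-0.54 each, 0.036 each).

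The calls for Gstm2, Gstk1, Gsta2 and Gstt2 held with each array left out, Gstt2 at 0.60 without WT tumour array 2. The call for Aldh1a1 was lost without Notch-activated tumour array 1 (1.33, adjusted p = 0.0782), and that for Gstp1 without WT tumour array 1 (0.49, 0.0516). Gstp2 was lost without WT tumour array 1 (0.37, 0.207) or either Notch-activated tumour array (0.48 and 0.60, 0.148 and 0.0689). Cyp4v3 was lost without any of the 4 arrays compared or of the Notch-activated normal arrays (adjusted p 0.0524 to 0.183). The enterocyte markers Slc5a1 (1.38) and Mep1b (0.93) were also higher in Notch-activated than in WT tumours, beside 0.18 for Slc15a1, while 4 of 5 Paneth, 3 of 5 fibroblast and 3 of 5 myeloid markers were lower. Whether these cells account for any of the differences was not tested.

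Between Notch-inactivated and WT tumours, 0 of 28 members were called higher and 0 lower with limma (background 0.105% and 0.0919%), and likewise under the 7 other settings tried and with each of the 12 arrays left out. At an unadjusted p under 0.05 the member lower was 1, Gsta2 (-0.65, SE 0.22, adjusted p = 0.81). Differences ranged from -0.65 to 0.34.

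The tumour difference itself was compared between genotypes by an interaction term. In Notch-activated against WT mice 8 of 28 members were called higher and 0 lower (background 6.57% and 5.49%), or 6 higher without Cyp2c23 and Gstm3. The difference was less negative in 22 of 28, with a median term of 0.68 beside 0.01 over all features. The share of all features with a positive term was not counted, so the 22 cannot be set against a background. The 28 include Cyp2a5, Cyp2c23, Cyp4a10, Cyp11a1 and Gstm3, measured through normal tissue. They also include Ces1c, at background in both Notch-activated groups. The terms were 1.81 for Gstm2 (SE 0.17, adjusted p = 0.000456) and 1.79 for Cyp2d10 (SE 0.26, 0.0026), both called with each array left out. For Gstm2 the 2 Notch-activated tumour arrays were high, while for Cyp2d10 the 2 WT normal arrays were. Gstk1 (1.07, adjusted p = 0.03), Gstt2 (0.98, 0.0325), Gstp1 (0.80, 0.0241) and Cyp4f16 (0.78, 0.0263) also passed. Each of these 4 calls was lost with 6 or 7 of the 12 arrays left out in turn, all from Notch-activated or WT mice. Their adjusted p then reached 0.103 for Gstk1, 0.106 for Gstt2, 0.0849 for Gstp1 and 0.0975 for Cyp4f16. Cyp2c23 (0.83, 0.00655) passed with Notch-activated tumours at background. Only its WT normal tissue was well above background, so the term rests on that group. Gstm3 passed too, but 3 of its 4 groups lay at background (Notch-activated tumours, Notch-activated normal tissue and WT tumours), so its term is no measured difference between changes. The term for Aldh1a1 was 1.49 (SE 0.49, adjusted p = 0.0781).

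In Notch-inactivated against WT mice 1 member was called higher and 2 lower (background 0.267% and 0.442%). Cyp2c66 (-2.03, SE 0.35, adjusted p = 0.0391) and Gsta2 (-1.77, SE 0.31, 0.0422) had a steeper fall in Notch-inactivated mice, and for Cyp2c66 the high group was Notch-inactivated normal tissue. Cyp2c23 had a term of 0.85 (0.0395) with Notch-inactivated tumours at background and only WT normal tissue well above it. None of the 3 calls held with each array left out: Gsta2 was lost with 9 of the 12 arrays left out in turn (adjusted p 0.0706 to 0.129), Cyp2c66 with 10 (0.0531 to 0.117) and Cyp2c23 with 11 (0.0572 to 0.129). Ugt2b35 (1.31, adjusted p = 0.116) and Cyp2d10 (1.18, 0.0838) did not pass.

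Other genes of the pathway were taken from lists, of which only part was measured. Of 23 xenosensors and regulators, 5 were measured, and 1 rose and 1 fell in Notch-activated, 2 rose and 2 fell in Notch-inactivated, and 1 rose and 3 fell in WT tumours. Their median difference was 0.00 in Notch-activated, -0.26 in Notch-inactivated and -0.66 in WT tumours, beside the medians of all features given above. Vdr, the vitamin D receptor that drives several P450s, fell in Notch-activated (-0.71, adjusted p = 0.0489), Notch-inactivated (-2.95, 9.17e-06) and WT tumours (-3.47, 3.18e-06), and was higher by 1.51 in Notch-activated than in WT tumours (SE 0.23, 0.00128). Mafg, a small Maf partner of Nrf2, rose by 1.04, 2.22 and 2.42 in Notch-activated, Notch-inactivated and WT tumours. Por, the electron donor of P450s, had differences of -0.44, -0.30 and -0.22 and passed in none.

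Of 34 other detoxifying enzymes 8 were measured, and 2 fell in Notch-activated tumours, 4 fell and 1 rose in Notch-inactivated tumours, and 3 fell and 1 rose in WT tumours, with medians of -0.26, -0.31 and -0.21. The microsomal transferase Mgst3 fell in Notch-activated (-0.50), Notch-inactivated (-1.97) and WT tumours (-1.80), and was higher by 1.41 in Notch-activated than in WT tumours (SE 0.15, adjusted p = 0.000157). Of 12 glutathione supply genes 4 were measured, with a median of 0.62 between Notch-activated and WT tumours. Gss, glutathione synthetase, was higher by 1.25 in Notch-activated than in WT tumours (SE 0.09, 2.43e-05), as were the peroxidase Gpx2 (0.88, 0.00773) and the glutamate-cysteine ligase subunit Gclm (0.35, 0.0483), while the cystine carrier Slc7a11 was lower (-0.37, 0.0209). Of 7 efflux pumps the 1 measured, Abcc2, rose in Notch-inactivated (1.59) and WT tumours (1.37) and was lower in Notch-activated than in WT tumours (-1.72, 6.44e-05).

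Of 15 retinoid handling genes 4 were measured, and 0 were called in Notch-activated tumours (limma, adjusted p), while 2 rose and 1 fell in Notch-inactivated tumours and 2 rose in WT tumours. Rdh10, which makes retinal, rose by 1.03 in Notch-inactivated and 1.99 in WT tumours. Of 19 fat oxidation genes 7 were measured, and 1 fell in Notch-activated, 4 in Notch-inactivated and 4 in WT tumours, with 0 rising and medians of -0.14, -0.32 and -0.66. Crat, carnitine acetyltransferase, fell in all 3 (-0.57, -0.73 and -0.90), and 0 of the 7 were called between Notch-activated and WT tumours.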

How the data were processed

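Total RNA was labelled as biotin cRNA and hybridised to 12 Illumina bead arrays, per the labels' protocols. The values used are the normalized table the authors deposited, read as log2 signals and quantile normalized: each array has a median of 5.54, a highest value of 14.2 and a lowest of 4.67. The log base is inferred from that range, and the background correction is not given in the sources used here. A companion table held 24 columns of per-sample values that could not be tied to samples and were not used.

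A gene number in each probe ID was looked up in RefSeq (GRCm38.p6). Of numbers after 1 leading zero 81.1% matched, and of those after 2 zeros 84.8%, against 16.4% and 17.7% after a shift of the numbers. In all 9805 probes received a symbol. After 549 control probes were left out, a probe was kept if it passed the 95th percentile of 45 foreign-sequence probes on at least 2 arrays (23588 probes), and the brightest kept probe stood for a gene. Between 35.0% and 47.4% of the probes exceeded that limit on an array, and the number of arrays limits the precision.

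Tests used limma 3.58.1 in R 4.3.3 with 6 group means over 12 arrays, 9 comparisons and Benjamini-Hochberg adjustment over 22854 features. The fit had 6 residual degrees of freedom, 3.77 prior degrees of freedom and a typical SD of 0.12. The code was tested on simulated data. Any measured member could be named; values on all 12 arrays went to the up to 8 called members with the largest difference in a comparison and to the brightest of each family or class, and up to 4 called genes of another list were named. Por, Slc15a1, Trf and the transporter Abcc2 were named in addition as the measured genes of short lists. Some genes of the lists are not reported here, and counts and means leave them out. Members and lists were chosen with earlier results of these data known. Alternatives were cyclic loess, other background filters, the mean over probes, a replicate block, a trended robust variance, names through 2 zeros left out, and each array left out. Arrays sharing a replicate number were not treated as pairs, since the labels name no pairing. Over 15 pairs of groups the correlation of their deviations ran from -0.38 to 0.34, with 2 over 0.1. Such values cannot settle whether samples were paired.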

Additional observations from a re-analysis of the deposited data

Results flagged for a closer look

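For 11 member results the tumour difference itself differed between genotypes by an interaction term with an adjusted p under 0.05 (limma). Against WT mice, the term in Notch-activated mice was 1.81 for Gstm2, 1.79 for Cyp2d10, 1.07 for Gstk1, 0.98 for Gstt2, 0.83 for Cyp2c23, 0.80 for Gstp1, 0.78 for Cyp4f16 and 0.67 for Gstm3. In Notch-inactivated mice it was -2.03 for Cyp2c66, -1.77 for Gsta2 and 0.85 for Cyp2c23. Both sets use the same WT arrays. For Cyp2c23 the tumours of the Notch genotype lay at background and only WT normal tissue was well above it, so its terms rest on that group. For Gstm3 3 of the 4 groups lay at background, so its term is no measured difference. The terms of Gstm2, Cyp2d10 and Cyp2c23 in Notch-activated mice were called with each array left out, and the others were not. With 2 arrays a group, no array could be tested for standing apart within its group.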

How the results depend on the processing

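Of 79 calls of single members over the comparisons, 44 held under all settings in which the member was tested. Lost under at least 1 were 35, of which 28 only with an array left out, and 0 reversed direction. Members named through 2 leading zeros had no test with those names left out, and that setting was not scored for them. Members called lower in tumours numbered 4 to 11 in Notch-activated, 14 to 18 in Notch-inactivated and 17 to 22 in WT mice with an array left out, and those called higher in Notch-inactivated tumours 1 to 2. Against WT normal tissue, 0 to 2 were higher and 3 to 6 lower in Notch-activated, and 1 to 3 higher and 3 to 4 lower in Notch-inactivated normal tissue. In Notch-activated against WT tumours 5 to 9 were higher and 0 to 1 lower. For the difference between tumour differences, 3 to 11 were higher in Notch-activated, and 0 to 2 higher and 0 to 1 lower in Notch-inactivated mice.

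With the names from 2 leading zeros left out, members called higher were 0 in Notch-inactivated tumours and 1 in the normal tissue of each Notch genotype, and the interaction calls lower in Notch-inactivated mice were 1, since fewer members entered. With a replicate block the interaction calls in Notch-inactivated mice were 0 higher and 1 lower. Cyp4f16 in Notch-activated normal tissue also lost its call with the block (adjusted p = 0.0634), without the background filter (0.053), with the mean over probes (-0.36, 0.0682) and with the trended robust variance (0.0558). Whether the replicate numbers pair samples is not stated in the labels and could not be settled with 2 arrays a group. Cyclic loess took away the calls for Aldh3b1 in Notch-inactivated tumours (-0.59, 0.0544), Cyp4f16 in Notch-activated tumours (-0.38, 0.0627) and Gstp2 between Notch-activated and WT tumours (0.46, 0.0584), and the trended robust variance that for Cyp2d22 in Notch-activated tumours (0.0548). Some settings added calls. The replicate block added Ces1c in WT tumours (-1.40, adjusted p = 0.0373) and Gstm2 in Notch-inactivated normal tissue (-0.51, 0.0404). The trended robust variance added Ces3b in Notch-inactivated tumours (-0.21, 0.0371) and the Notch-activated interaction term of Gstp2 (0.70, 0.0484). The cause of these changes was not tested. Members near background, 9 of 28 below the limit on some array, have compressed differences.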
